A study of Mus musculus with 594 samples.

Results

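The lysosome genes described here are a list of 40 genes given by name: proteases, glycosidases, sulfatases, lipid hydrolases with their carriers and precursors, membrane proteins, and parts of the vacuolar proton pump. The group called lipid genes below also counts the progranulin gene Grn, which is neither a lipid hydrolase nor a lipid carrier. Where several probe sets measured a gene, the one of highest mean intensity was used, and 36 of the 40 were measured, among 11807 named genes on the arrays. Ctso, Neu1, Arsb and Cd63 were not analysed here. The study exposed 2 mouse islet tumour lines, the glucagon-producing αTC1 and the insulin-producing βTC3, to 29 small molecules, most of them aimed at chromatin enzymes, or to the solvent DMSO alone, and measured RNA on Affymetrix arrays after 1, 6 and 24 h. The 594 arrays comprised 299 from αTC1 cultures and 295 from βTC3 cultures. Of the 174 groups of 1 compound, line and time, 168 held 3 arrays, 5 held 2 and 1 held 4, and the DMSO groups held 10 to 14 arrays (76 in all).

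The compounds were grouped by what is known of their structure or target. The hydroxamic acids, which inhibit histone deacetylases, were CRA-024781 at 1.5 µM, ITF-2357 at 10 µM, LBH-589 at 0.015 µM, PXD101 at 2.4 µM, pyroxamide at 10 µM, SAHA at 1.3 µM, scriptaid at 2 µM and trichostatin A at 0.22 µM. The ortho-amino anilides, also histone deacetylase inhibitors, were CI-994 at 10 µM, MGCD-0103 at 1.1 µM and MS-275 at 2.9 µM, and the cyclic tetrapeptides of the same action were apicidin at 1.4 µM and HC-toxin at 0.12 µM. BIX-01294 at 10 µM and chaetocin at 1.7 µM are described as inhibitors of histone lysine methyltransferases, and AMI-1 at 10 µM of protein arginine methyltransferases. 5-azadeoxycytidine, RG-0108 and zebuarine, each at 10 µM, are inhibitors of DNA methylation. The compounds with code names were BRD-A94377914 at 3 µM, BRD-K17311666 at 4.3 µM, BRD-K22912318 at 5 µM, BRD-K62233722 at 3.7 µM, BRD-K90919562 at 4.1 µM, BRD-K92415738 at 3.2 µM, BRD6929 at 0.91 µM, and BRD5298, BRD8451 and BRD9773 at 10 µM, all compared with DMSO of the same line and time. Both lines come from tumours of transgenic mice that make a viral T antigen in islet cells, and each is 1 immortal line, so the spread between arrays covers repeated treatments of 1 line at most.

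Lysosomes are the acid compartments in which cells break down proteins, sugars, lipids and worn-out organelles that reach them by endocytosis and autophagy. Soluble hydrolases are sorted to them from the Golgi, mostly by mannose phosphate tags, the proton pump keeps the lumen acid, and membrane proteins such as LAMP1 and LAMP2 line the inside of the membrane. In islet cells lysosomes also take up and degrade aged secretory granules. Many lysosome genes are switched on together by transcription factors of the TFEB, TFE3 and MITF family, which bind a motif with the core CACGTG near the start of these genes.

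That core was looked for in the 250 bases before the start site of each gene, on the strand of the gene, in RefSeq sequences of build GRCm38.p6. The motif reads the same on both strands, so a single search covers both. Sequences of this kind were found for 30 of the 36 genes, and 13 of the 30 (43.3%) held CACGTG, against 6.86% of all 27025 genes in the RefSeq table. The longer TCACGTGA, which contains CACGTG, stood before 4 of the 30 genes (13.3%) and before 0.907% of all genes. Lipa and Ctsl are printed as the largest rises under hydroxamic acids in αTC1 at 24 h and Gusb and Naglu as the called falls there, and Gla and Lamp1, picked after the values were seen, because they hold several copies of the motif. The windows are chr19:34527475-34527724 on the minus strand for Lipa, chr13:64370521-64370770 on the minus strand for Ctsl, chr5:130003050-130003299 on the minus strand for Gusb, chr11:101069844-101070093 on the plus strand for Naglu, chrX:134601006-134601255 on the minus strand for Gla, and chr8:13158911-13159160 on the plus strand for Lamp1. Each is written 5′ to 3′ on the strand of its gene, and capitals mark CACGTG:
Lipa: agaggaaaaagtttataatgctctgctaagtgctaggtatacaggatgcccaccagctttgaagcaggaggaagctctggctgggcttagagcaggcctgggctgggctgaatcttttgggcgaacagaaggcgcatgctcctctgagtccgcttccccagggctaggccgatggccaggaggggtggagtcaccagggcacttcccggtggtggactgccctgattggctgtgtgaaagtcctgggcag
Ctsl: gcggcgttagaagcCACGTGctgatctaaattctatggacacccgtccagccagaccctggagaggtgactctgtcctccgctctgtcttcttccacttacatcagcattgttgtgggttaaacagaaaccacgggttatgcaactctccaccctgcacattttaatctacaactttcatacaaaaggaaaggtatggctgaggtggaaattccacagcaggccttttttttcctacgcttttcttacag
Gusb: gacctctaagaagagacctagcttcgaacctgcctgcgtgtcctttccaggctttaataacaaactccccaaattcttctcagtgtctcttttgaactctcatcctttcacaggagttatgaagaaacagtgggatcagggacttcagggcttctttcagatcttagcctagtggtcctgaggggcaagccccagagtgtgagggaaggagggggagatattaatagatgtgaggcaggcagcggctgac
Naglu: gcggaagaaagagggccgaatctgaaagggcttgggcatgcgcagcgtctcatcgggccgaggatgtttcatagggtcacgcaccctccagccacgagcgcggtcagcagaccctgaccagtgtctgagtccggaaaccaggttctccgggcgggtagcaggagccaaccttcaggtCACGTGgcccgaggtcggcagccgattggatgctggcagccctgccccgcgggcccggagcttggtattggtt
Gla: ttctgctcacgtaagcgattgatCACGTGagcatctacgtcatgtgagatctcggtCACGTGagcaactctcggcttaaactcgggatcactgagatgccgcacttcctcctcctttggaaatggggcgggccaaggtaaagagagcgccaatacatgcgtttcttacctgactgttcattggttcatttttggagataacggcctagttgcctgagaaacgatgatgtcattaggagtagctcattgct
Lamp1: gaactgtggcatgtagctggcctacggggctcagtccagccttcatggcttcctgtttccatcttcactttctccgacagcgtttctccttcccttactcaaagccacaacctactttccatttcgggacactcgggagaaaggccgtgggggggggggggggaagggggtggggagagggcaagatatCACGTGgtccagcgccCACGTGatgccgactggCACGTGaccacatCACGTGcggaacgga
Lamp1 held 4 copies of the motif and Gla 2, while Ctsl and Naglu held 1 each and the windows of Lipa and Gusb none. The window of Man2b1, the next largest rise after Ctsl, is not printed and held none either. Nor did that of Manba, among the largest rises under ortho-amino anilides in αTC1 at 24 h. Start sites were taken as annotated and not checked gene by gene, so a window may not be the promoter in use in these cells. A match describes the letters only, and no binding was measured.

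The 36 genes lay mostly in the upper part of the intensity range. On the log2 scale of the arrays, Ctsl and Grn averaged 10.81 over all arrays (98.2 percent of all genes lay lower), followed by Npc2 at 10.77, Lamp1 at 10.47, Ctsz at 10.4 and Psap at 10.21. The lower end was Manba at 4.55, Ctsh at 3.07 and Ctsc at 2.9, the only genes of the 36 below the median gene level of 5.01. Intensities of different probe sets are not comparable as amounts of RNA, so these values only place each gene within the range of the arrays.

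The lines matched their names. Ins2, the insulin gene, had a median of 4.12 in αTC1 and 13.25 in βTC3, and Irx1, an alpha cell transcription factor, one of 7.22 in αTC1 and 3.06 in βTC3. All 6 measured alpha cell markers exceeded the median gene level in αTC1 and 5 of 6 beta cell markers did in βTC3. Outside their own line, 3 of 6 alpha cell markers exceeded it in βTC3 and 2 of 6 beta cell markers in αTC1. Of 4 exocrine pancreas markers 1 exceeded it in αTC1 and none in βTC3. Of 7 leukocyte, 4 fibroblast and 3 endothelial markers none did in either line, and the leukocyte markers, of interest because macrophages are rich in lysosomes, had array means of 3.05 to 3.85 in αTC1 and 2.87 to 3.26 in βTC3. The glucagon gene Gcg varied between batches in βTC3 (batch means of 6.25 to 10.43 in DMSO at 24 h), where the median level of the lysosome genes was 8.38 to 8.87. In αTC1 at 24 h, 2 arrays stood apart: apicidin replicate 1, whose mean correlation with its group was 0.964 (median of all arrays 0.992), and 1 DMSO array with Gusb at 4.29 where the other 13 DMSO arrays ran from 6.47 to 6.99. All comparisons with αTC1 arrays at 24 h were also fitted without both. RNA was taken from whole cultures, so fewer cells of a kind and less RNA per cell cannot be told apart.

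In DMSO at 24 h the genes were mostly lower in αTC1 than in βTC3. Of the 36 genes, 29 were lower and 3 higher in αTC1 (limma, Benjamini-Hochberg adjusted p under 0.05 over all 11807 genes, the rule for every call here), with a median difference of -0.75 on the log2 scale. Over all genes 59.6% were called between the lines, 28.9% lower and 30.7% higher in αTC1. The alpha-galactosidase gene Gla differed by -2.22 ± 0.087 (SE, adjusted p = 6.03e-18), the protease gene Ctsb by -1.80 ± 0.057 (adjusted p = 6.75e-20), and the beta-galactosidase gene Glb1 by -1.68 ± 0.071 (adjusted p = 3.03e-17). Atp6v1h, a subunit of the proton pump, was higher in αTC1 by 0.68 ± 0.11 (adjusted p = 4.33e-06), as were the protease gene Ctsf by 0.47 and the heparan sulfatase gene Sgsh by 0.25. Ctsc, Ctsz, Ctsh and Tpp1 were not called.

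None of the lysosome genes was called after 1 h under any of the 29 compounds in either line, where 0.0327% of all gene and compound pairs were called in αTC1 and 0.0943% in βTC3. At an unadjusted p under 0.05 (limma) up to 7 of 36 passed in αTC1 at 1 h (BRD5298) and up to 12 of 36 in βTC3 (CRA-024781). Across the 29 compounds and 36 genes, 1044 pairs in each line and time, 312 rose and 14 fell in αTC1 at 6 h, which is 31.2% of the pairs against 20.8% of pairs over all genes. In βTC3 at 6 h 177 rose and 42 fell, 21% against 22.1%. At 24 h 430 rose and 40 fell in αTC1, 45% against 21.3%, and 272 rose and 77 fell in βTC3, 33.4% against 18.2%. Most of the 36 genes lay above the median gene level, and the shares over all genes are not matched for level. Under hydroxamic acids at 24 h, genes at or above that level were called more often than all genes in both lines, as given below. Shares matched in this way were taken only for hydroxamic acids and anilides, so the other shares below carry the same limit. Over all genes rises and falls were close to balanced at 24 h (10.6% and 10.7% of pairs in αTC1, 9.49% and 8.73% in βTC3). At least 1 of the 36 genes was called under 21 compounds at 6 h and 24 at 24 h, in each line.

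**Figure D1:**
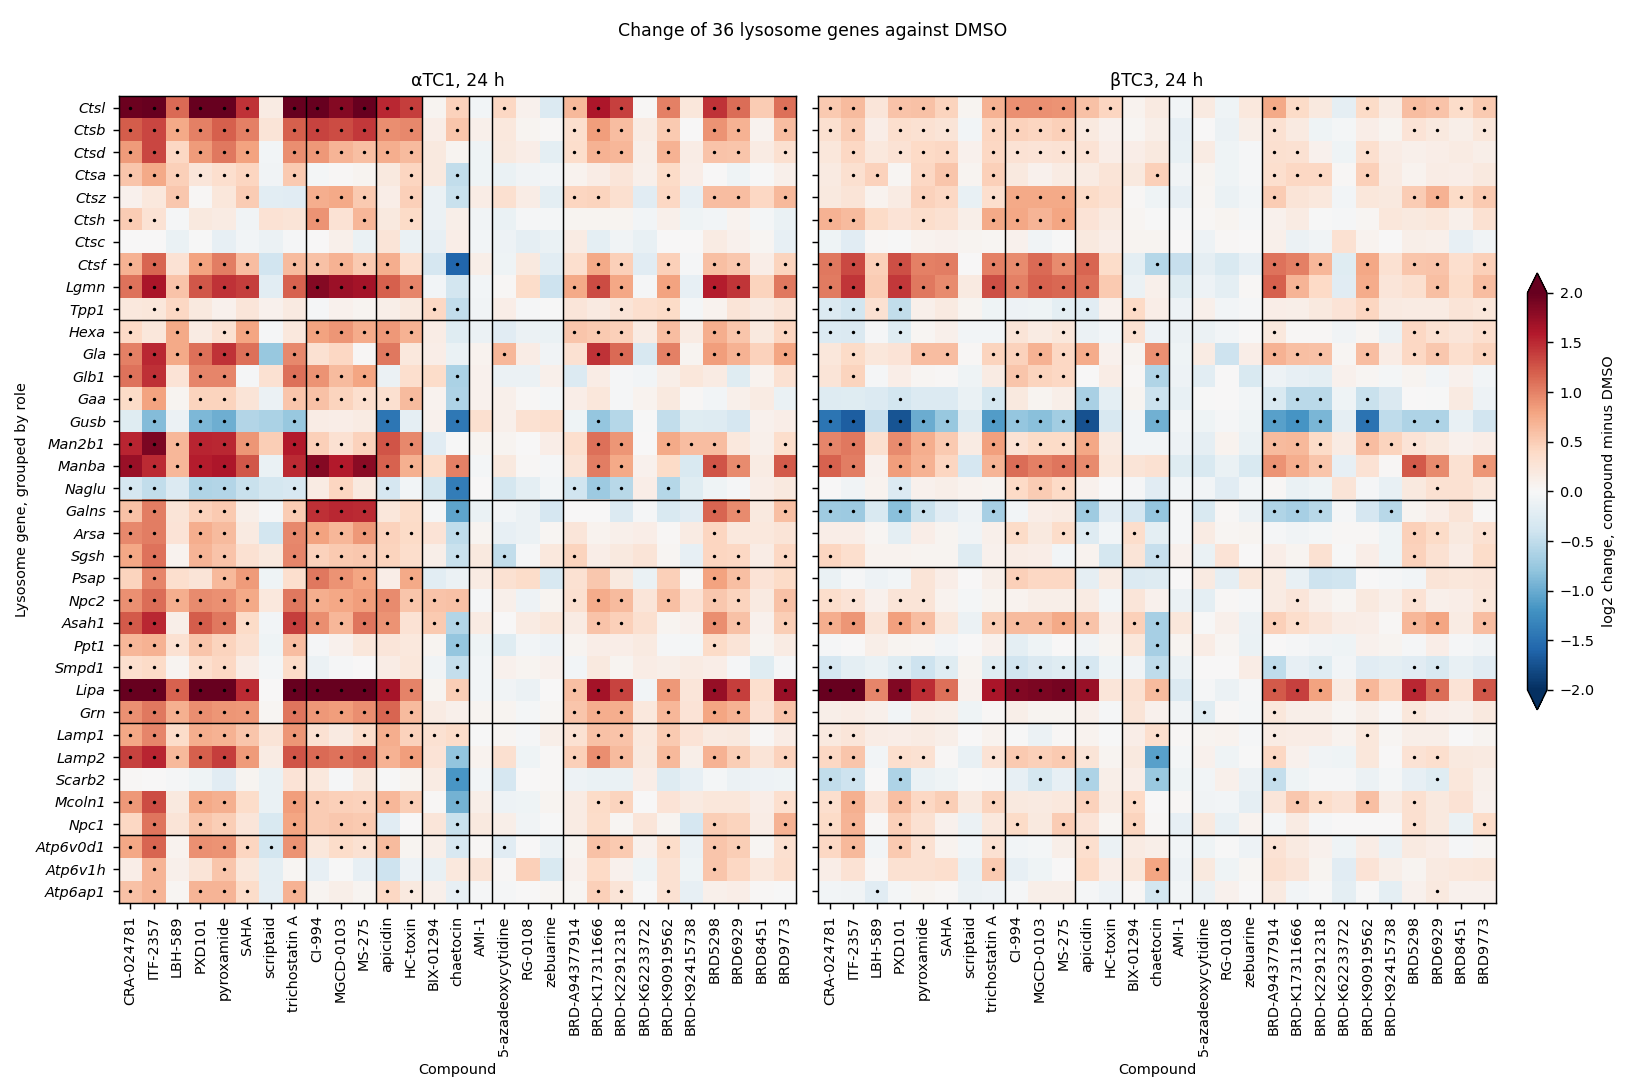
Change of each of the 36 lysosome genes (rows, grouped by role as in the text) under each of the 29 compounds (columns, grouped by class) at 24 h in αTC1 (left) and βTC3 (right), as log2 change of compound minus DMSO from limma; dots mark adjusted p under 0.05 and colours saturate at 2. In αTC1 red fills the rows of Lipa and Ctsl under most histone deacetylase inhibitors, with scriptaid an exception for Lipa, and the row of Man2b1 under most hydroxamic acids. The Gusb row is mostly blue in both lines. Over all rows there were 430 rises and 40 falls in αTC1 and 272 rises and 77 falls in βTC3.

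**Figure D2:**
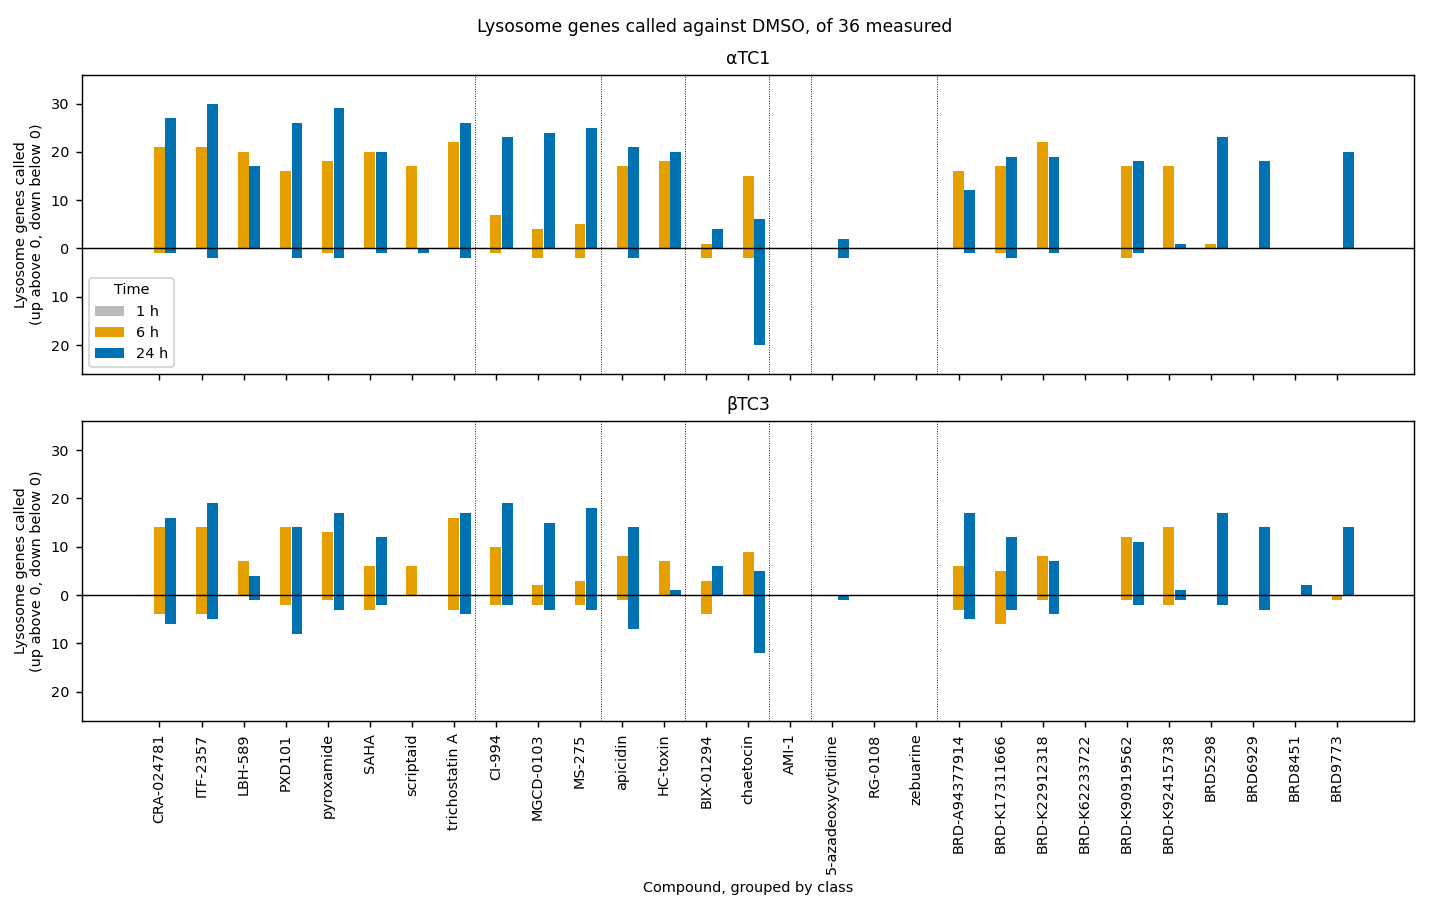
Number of the 36 lysosome genes called up (bars above 0) and down (bars below 0) against DMSO for each compound at 1, 6 and 24 h, in αTC1 (top) and βTC3 (bottom). No bar stands at 1 h, ITF-2357 reached 30 genes up in αTC1 at 24 h, and chaetocin had 20 genes down in αTC1 at 24 h.

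The hydroxamic acids raised lysosome genes of every role in αTC1. Averaged over the 8 compounds at 24 h, 31 of the 36 genes rose and 2 fell, with a median log2 change of 0.57, while 50.4% of all genes were called, 26.1% up and 24.3% down, with a median of 0.004. Since the lysosome genes are strongly expressed, the share among the 5904 genes at or above the median level is also given: 34.9% of these rose and 39.9% fell. All 7 lipid genes rose, with a median of 0.81, as did 8 of 10 proteases, 6 of 8 glycosidases, the 3 sulfatases, 4 of 5 membrane proteins and the 3 pump genes. Without the 2 arrays that stood apart the pump gene Atp6v1h was not called (0.21, adjusted p = 0.0619, against 0.22, adjusted p = 0.0478, with them). Of the 36, 6 rose by at least 2-fold, as 3.24% of all genes did. Within each of the 7 batches that held both treatments and DMSO, the median change of the 36 genes was above 0, from 0.35 to 1.2. The highest value came from batch 10, with 1 compound array. Batches held 1 to 5 of these arrays and different compounds, so this range mixes compound and batch, as does that of βTC3 below.

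Lipa, the acid lipase that frees cholesterol and fatty acids from lipoprotein esters, changed most. Its log2 levels in the 22 αTC1 arrays with a hydroxamic acid at 24 h were 5.18 at the lowest, 8.24 at the median and 8.59 at the highest, against 5.08, 5.72 and 6.30 in 14 DMSO arrays. All but 2 of the 22 arrays lay above every DMSO array, and those 2 were of scriptaid (5.84 and 5.18). Lipa rose 3.85-fold, a log2 change of 1.94 ± 0.093 (SE, adjusted p = 3.7e-29). Ctsl, a cysteine protease that also takes part in peptide hormone processing, had a lowest, median and highest level of 9.90, 11.80 and 12.39 under hydroxamic acids, against 9.30, 9.90 and 10.41 in DMSO. Here too 20 of the 22 arrays were above all DMSO arrays, and the change was 1.63 ± 0.068 (adjusted p = 3.27e-32). Man2b1, the acid alpha-mannosidase, ran from 7.74 through 8.72 to 9.12, against 6.89, 7.29 and 7.55 in DMSO. Its 22 arrays did not overlap with DMSO at all, and it rose by 1.26 ± 0.065 (adjusted p = 2.28e-27).

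Further rises in αTC1 included Lamp2, the lysosomal membrane protein needed for autophagosome fusion and chaperone-mediated autophagy, with a change of 1.04, the asparagine endopeptidase gene Lgmn with 1.04, and the cathepsin B gene Ctsb with 1.00. The glycosidase genes Gusb and Naglu fell. Gusb, beta-glucuronidase, had a lowest, median and highest level of 5.46, 5.90 and 6.68 under hydroxamic acids, against 4.29, 6.74 and 6.99 in DMSO. The low value in DMSO is that of the single array named above. The change was -0.64 ± 0.13 (adjusted p = 1.9e-05), and -0.83 without the 2 arrays that stood apart (adjusted p = 1.2e-14). Within single batches the Gusb difference ran from -1.05 to -0.43, except in batch 9, where it was 0.39. Under BIX-01294 it was also high in batch 9 (1.32), against -0.03 in batch 6 and -0.33 in batch 7. Batch 9 held 2 DMSO arrays, and the part of the low DMSO array in these differences was not tested. Naglu, which trims heparan sulfate, had 6.38, 6.82 and 7.22 against 6.73, 7.17 and 7.43 in DMSO, with 9 of 22 arrays below all DMSO arrays and a change of -0.43 ± 0.063 (adjusted p = 2.09e-08). The receptor gene Scarb2 (-0.01), the dipeptidyl peptidase gene Ctsc (-0.06) and the carboxypeptidase gene Ctsz (0.15) were not called.

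In βTC3 the same compounds gave more mixed calls at 24 h: 20 genes rose and 6 fell, with a median change of 0.19, beside 22.5% and 20.7% of all genes. Among genes at or above the median level 31.8% rose and 34.4% fell. Of the proteases 8 of 10 rose and none fell, but of the glycosidases 3 rose and 3 fell, of the lipid genes 3 rose and 1 fell, and the 1 sulfatase called fell. Batch medians were above 0 in all 7 batches, from 0.06 to 0.32. Lipa had a lowest, median and highest level of 5.84, 7.88 and 8.60 in 24 arrays, against 5.83, 6.30 and 6.70 in 12 DMSO arrays, with 21 of the 24 above all of DMSO and a change of 1.41 ± 0.067. Lgmn had 8.38, 9.60 and 10.17 against 7.95, 8.46 and 8.80 in DMSO, with 21 of 24 arrays above (0.98 ± 0.095, adjusted p = 1.73e-14). Ctsf, a cysteine protease, had 6.38, 7.59 and 8.05 against 5.71, 6.61 and 6.89, with 20 of 24 above (0.90 ± 0.081, adjusted p = 1.17e-15). These 3 genes led the rises in βTC3.

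The falls in βTC3 were led by Gusb, with levels of 6.32, 7.38 and 8.44 under hydroxamic acids against 8.12, 8.39 and 8.66 in DMSO. Of the 24 arrays 22 lay below every DMSO array, and the change was -1.06 ± 0.089 (adjusted p = 4.19e-17). Galns, the sulfatase that acts on keratan sulfate, had 6.10, 6.52 and 7.43 against 6.66, 7.09 and 7.70, with 15 arrays below all of DMSO (-0.50 ± 0.071, adjusted p = 8.45e-09). Gaa, acid alpha-glucosidase, which degrades glycogen, fell by 0.27 (SE 0.057, adjusted p = 4.19e-05). Scarb2 (-0.22), Smpd1 (-0.22) and Hexa (-0.10) were the other called falls. Beside these values, 4 of 6 alpha cell markers fell in αTC1 under hydroxamic acids (median -0.56) and 4 of 6 beta cell markers fell in βTC3 (median -0.86), whose part in the results was not tested.

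**Figure D3:**
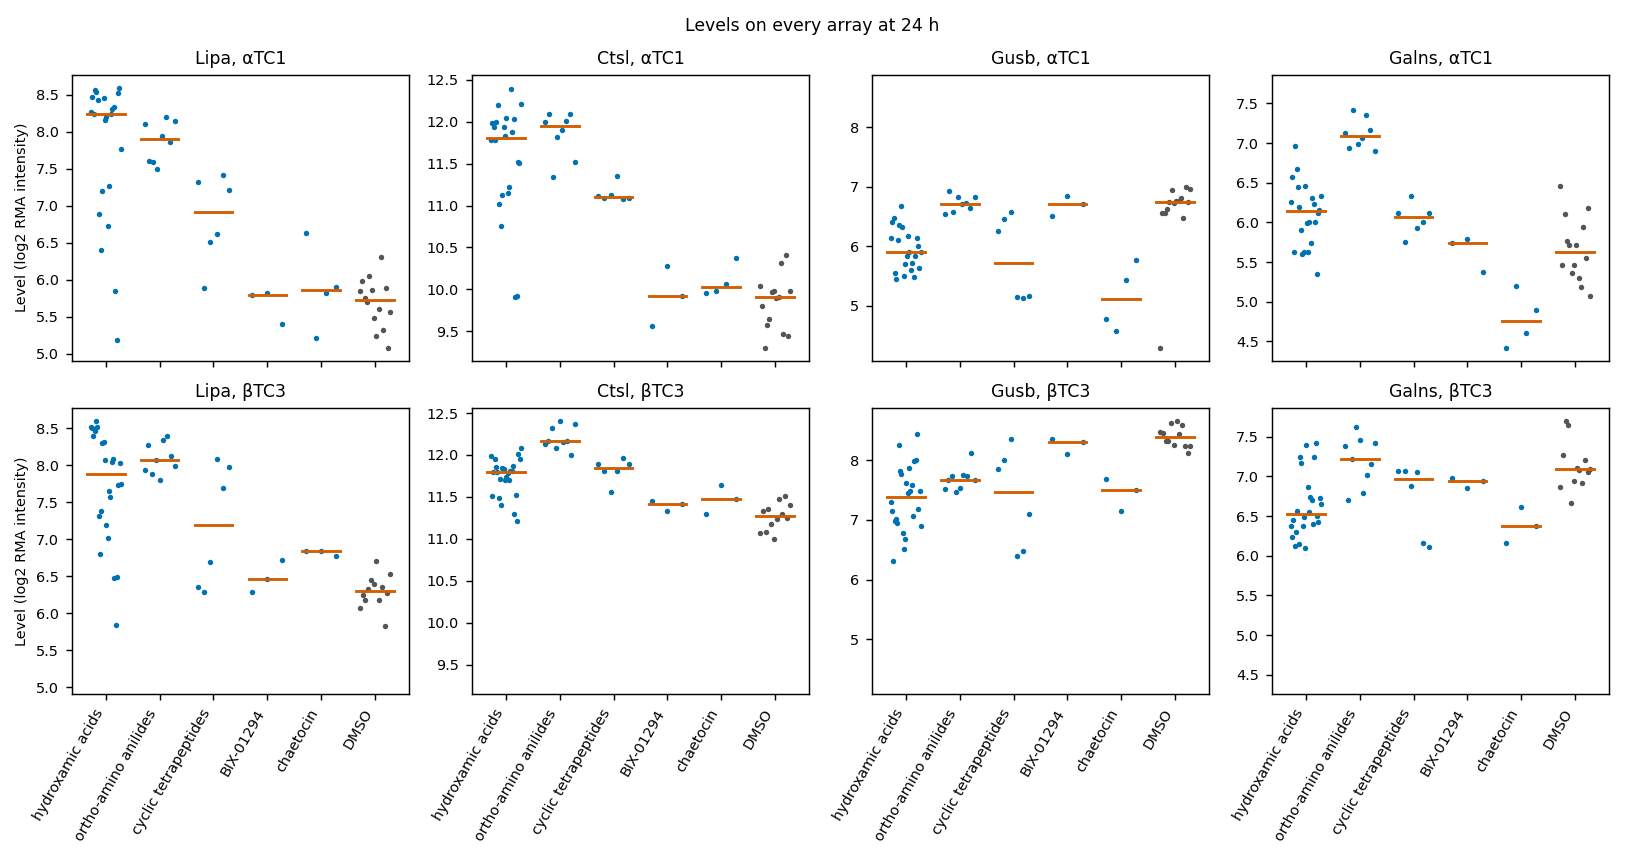
Log2 RMA intensity of Lipa, Ctsl, Gusb and Galns on every array at 24 h in αTC1 (top) and βTC3 (bottom), by treatment class with DMSO at the right; points are arrays and orange lines are medians. Lipa lay highest under hydroxamic acids and ortho-amino anilides in both lines, Galns was high under ortho-amino anilides in αTC1 (6.90 to 7.42, against 5.08 to 6.46 in DMSO), and 1 αTC1 DMSO array had a low Gusb level of 4.29.

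The difference between the lines was tested itself, in a joint fit with both lines. Under hydroxamic acids at 24 h, the change was more positive in αTC1 for 26 genes and more negative for 3, with a median difference of 0.46, where 17.6% and 18.2% of all genes differed in these directions. Ctsl led with 1.17 ± 0.084 (adjusted p = 2.27e-25), with changes of 1.63 in αTC1 and 0.47 in βTC3, then Galns with 0.93 ± 0.11 (adjusted p = 1.51e-12), Lamp2 with 0.83 ± 0.075 (adjusted p = 1.25e-18) and the progranulin gene Grn with 0.74 ± 0.072 (adjusted p = 1.01e-16). The reverse was called for Naglu (-0.43), Ctsf (-0.29) and Ctsh (-0.24). Without the 2 αTC1 arrays that stood apart 27 genes were called: the difference for Gusb was 0.22 (adjusted p = 0.152) instead of 0.42 and that for Ctsh was -0.22 (adjusted p = 0.0586). The DMSO levels of Ctsl had a median of 9.90 in αTC1 and 11.27 in βTC3, and those under hydroxamic acids one of 11.80 in αTC1 and 11.79 in βTC3.

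**Figure D4:**
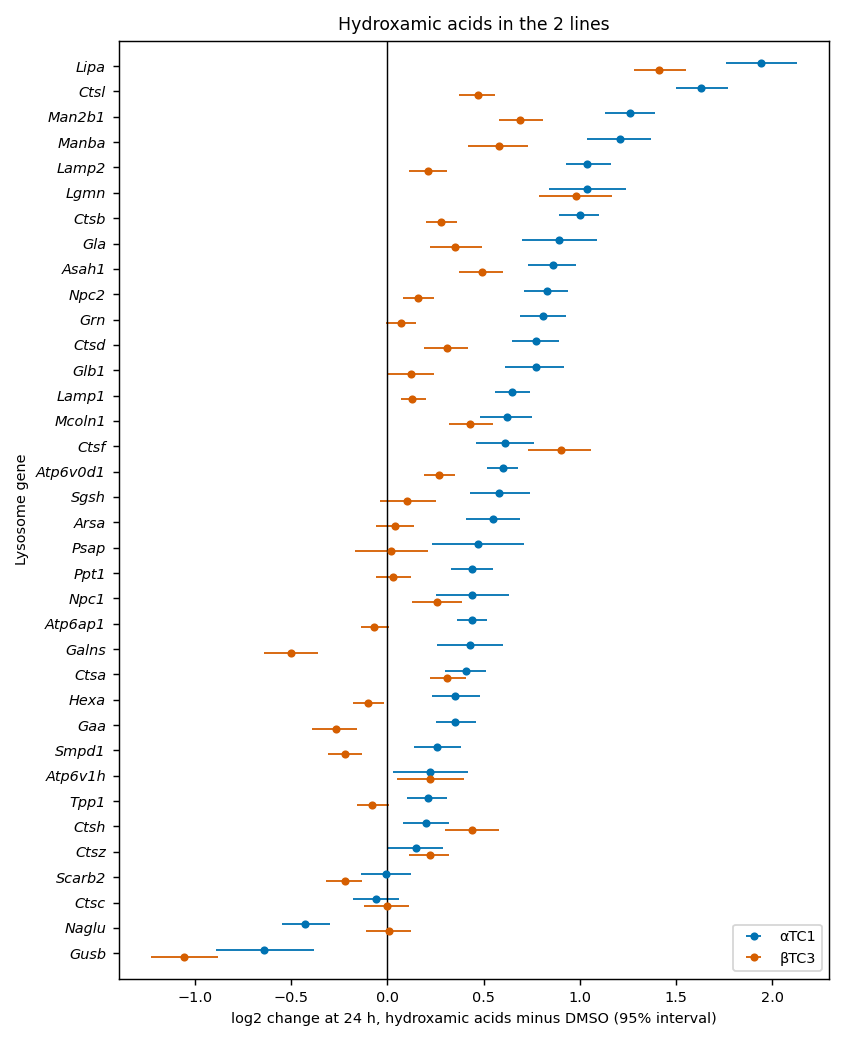
Log2 change with 95% interval of each of the 36 lysosome genes at 24 h under hydroxamic acids minus DMSO, in αTC1 (blue) and βTC3 (orange), with genes ordered by the change in αTC1. Most blue points lie right of their orange partners, with Ctsl at 1.63 in αTC1 and 0.47 in βTC3, while Naglu, Ctsf and Ctsh, the called differences of the other sign, lie left.

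The ortho-amino anilides raised 26 of the 36 genes and lowered none in αTC1 at 24 h (median 0.56), where 21.2% of all genes rose and 22.5% fell and, among genes at or above the median level, 28.9% rose and 39.2% fell. In βTC3 21 rose and 4 fell (median 0.25), beside 22.0% and 21.7% of all genes. Batch medians were 0.54 to 0.60 in αTC1 (3 batches) and 0.19 to 0.30 in βTC3 (4 batches). The 3 sulfatases, 7 of 10 proteases and 6 of 8 glycosidases rose in αTC1, while of the 3 pump genes 1 rose there and none was called in βTC3.

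In αTC1 the 8 anilide arrays had Lipa at 7.49, 7.90 and 8.20 (lowest, median, highest), all above the 5.08 to 6.30 of DMSO, a change of 2.23 ± 0.13 (adjusted p = 2.37e-24). Ctsl had 11.34, 11.95 and 12.09 against 9.30 to 10.41 in DMSO, again with no overlap (1.99 ± 0.095, adjusted p = 1.39e-28). Manba, beta-mannosidase, had 4.82, 5.80 and 6.12 against 3.37, 3.92 and 4.41 in DMSO (1.74 ± 0.12, adjusted p = 2.39e-21). None of the anilide arrays reached down to the highest DMSO array for these 3 genes. In βTC3 the largest rises were Lipa (1.88 ± 0.087, adjusted p = 3.28e-30; 7.80, 8.07 and 8.39 in 9 arrays against 5.83 to 6.70), Lgmn (1.11 ± 0.12, adjusted p = 3.4e-12) and Manba (1.06 ± 0.1, adjusted p = 2.03e-14). Gusb fell in βTC3 by 0.76 (SE 0.12, adjusted p = 3.99e-08), with 7.47, 7.68 and 8.12 in 9 arrays, below the 8.12 to 8.66 of DMSO. The sphingomyelinase gene Smpd1 (-0.30), Scarb2 (-0.23) and the tripeptidyl peptidase gene Tpp1 (-0.13) also fell in βTC3. In αTC1 Gusb was not called (0.15).

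Set against each other at 24 h, hydroxamic acids minus anilides, 9 genes were higher and 11 lower under hydroxamic acids in αTC1 (14.2% and 13.4% of all genes), and 6 higher and 17 lower in βTC3 (16.2% and 16.3%). The doses were those of the study and differ between compounds, so the difference is between the classes as dosed. Higher under hydroxamic acids in αTC1 were Man2b1 by 0.85 ± 0.086 (adjusted p = 1.37e-12), Gla by 0.64 ± 0.13 (adjusted p = 5.85e-05), the protective protein gene Ctsa by 0.39 ± 0.07 (adjusted p = 4.42e-06) and Lamp1 by 0.38 ± 0.059 (adjusted p = 3.61e-07). Lower were Galns by 1.05 (SE 0.11, adjusted p = 3.87e-12), with 5.35, 6.14 and 6.96 under hydroxamic acids and 6.90, 7.09 and 7.42 under anilides, and Gusb, Lgmn and Naglu (-0.79, -0.69 and -0.69). In βTC3 Man2b1 was also higher under hydroxamic acids (0.34 ± 0.065, adjusted p = 1.74e-05) and Galns lower (-0.58 ± 0.084, adjusted p = 2.49e-08). Lamp1, Atp6v0d1, Atp6v1h and Ctsa were higher under hydroxamic acids in both lines.

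At the single matched dose of 10 µM the anilide CI-994 and the hydroxamic acids ITF-2357 and pyroxamide could be compared, 3 pairs in each line at 24 h, with p-values adjusted over all genes and the 3 pairs. The anilide ends in an ortho-amino anilide group where the other 2 end in a hydroxamic acid. CI-994 had 2 arrays in αTC1 and shared no batch with either of the others in either line, so its differences rest on the batch term of the fit. In αTC1, CI-994 minus ITF-2357 gave 4 genes higher and 12 lower (8.58% and 10.9% of all genes), CI-994 minus pyroxamide 5 higher and 7 lower (7.22% and 7.44%), and ITF-2357 minus pyroxamide 5 higher and none lower (3.01% and 1.81%). These 33 calls dropped to between 9 and 20 when 1 replicate number was left out, and the 20 in βTC3 to between 9 and 12. Man2b1 was lower under CI-994 than under ITF-2357 by a log2 difference of -1.41 (95% interval -1.77 to -1.04) and than under pyroxamide by -1.04 (-1.40 to -0.67), as was Gla (-1.21, interval -1.76 to -0.66, and -1.16, interval -1.71 to -0.60). The pump gene Atp6v0d1 differed in the same way (-0.95, interval -1.17 to -0.72, and -0.68, interval -0.90 to -0.46). Gusb was higher under CI-994 than under ITF-2357 (1.02, interval 0.30 to 1.74) and pyroxamide (1.13, interval 0.41 to 1.86).

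Ctsl, by contrast, did not pass the threshold between any of the 3 in αTC1: the intervals were -0.51 to 0.25 for CI-994 minus ITF-2357, -0.46 to 0.30 for CI-994 minus pyroxamide and -0.28 to 0.37 for ITF-2357 minus pyroxamide. For Lipa they were -1.11 to -0.08, -0.71 to 0.34 and -0.03 to 0.86, with adjusted p of 0.133, 0.77 and 0.264. Between the 2 hydroxamic acids in αTC1, the calcium channel gene Mcoln1 was higher under ITF-2357 by 0.60 (interval 0.28 to 0.92), as were Sgsh, the ceramidase gene Asah1, Ctsa and Gaa. In βTC3 the calls were 6 higher and 4 lower, 2 and 2, and 3 and 3 in the same order of pairs (19.8%, 13.7% and 16.4% of all genes called in either direction). Man2b1 was again lower under CI-994 than under ITF-2357 (-0.77, interval -1.06 to -0.47) and pyroxamide (-0.44, interval -0.72 to -0.16). ITF-2357 exceeded pyroxamide for Lipa in βTC3 by 0.64 (interval 0.31 to 0.96) and was below it for Gusb by -0.65 (interval -1.08 to -0.21). All 3 ITF-2357 arrays there came from 1 batch, which held 1 of the 3 pyroxamide arrays and 2 DMSO arrays. Within that batch the differences were 0.49 for Lipa and -0.61 for Gusb. In αTC1 the 2 compounds shared 2 batches with 1 array each, and Mcoln1 differed by 0.51 and 0.49 within them.

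The cyclic tetrapeptides raised 27 genes and lowered 1 in αTC1 at 24 h (median 0.44; 17.8% of all genes rose and 18.2% fell) and raised 11 and lowered 5 in βTC3 (median 0.13; 13.1% and 12.4%). In βTC3 the count was carried by apicidin: alone it had 14 genes up and 7 down (36.1% of all genes called) and HC-toxin 1 up and none down (2.2%). Apicidin's βTC3 arrays had Gusb at 6.39, 6.48 and 7.10 and HC-toxin's 7.85, 8.01 and 8.37, against 8.12 to 8.66 in DMSO. Their Lipa levels were 8.08, 7.69 and 7.98 under apicidin and 6.36, 6.29 and 6.69 under HC-toxin, against 5.83 to 6.70 in DMSO. HC-toxin thus lay within the range of DMSO for Lipa and apicidin above it. Of the calls for apicidin in αTC1, Gaa (0.32), Arsa (0.46) and Sgsh (0.45) were no longer called in the fit without both arrays that stood apart (0.07, 0.30 and 0.34, with adjusted p of 0.703, 0.144 and 0.155).

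Single compounds differed widely in how many lysosome genes they moved at 24 h. In αTC1 ITF-2357 raised 30 of the 36 genes and lowered 2 (46.2% of all genes called), with a median of 1.04 and 20 genes up by at least 2-fold, where 7.88% of all genes rose that much. Its Lipa levels were 8.56, 8.54 and 8.43 in αTC1 and 8.46, 8.60 and 8.52 in βTC3, each above all DMSO arrays of the line. Next in αTC1 came pyroxamide with 29 up and 2 down (41.2%), CRA-024781 with 27 and 1 (40.2%), trichostatin A with 26 and 2 (42.8%), PXD101 with 26 and 2 (41.0%), MS-275 with 25 and none (37.7%), MGCD-0103 with 24 and none (32.2%) and CI-994 with 23 and none (31.4%). In βTC3 ITF-2357 had 19 up and 5 down (40.4%), CI-994 19 and 2 (33.8%) and MS-275 18 and 3 (32.9%).

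Of the compounds with code names, BRD5298 raised 23 genes and lowered none in αTC1 at 24 h (32.4% of all genes called), BRD9773 20 and none (19.5%), BRD-K17311666 19 and 2 (29.4%), BRD-K22912318 19 and 1 (23.5%), BRD6929 18 and none (25.5%), BRD-K90919562 18 and 1 (13.4%), and BRD-A94377914 12 and 1 (7.95%). Under AMI-1, RG-0108, zebuarine and BRD-K62233722 no lysosome gene was called at 6 or 24 h in either line (limma), although at an unadjusted p under 0.05 up to 6 of 36 were. Of all genes, at most 0.0423% were called under RG-0108 and none under AMI-1. Under zebuarine 3.36% were called in βTC3 at 24 h and none in the other 3 comparisons, and under BRD-K62233722 0.102% and 0.00847% in αTC1 and 1.91% and 0.0932% in βTC3, at 6 and 24 h. BRD8451 had no call in αTC1 and 2 in βTC3 at 24 h, Ctsl (0.36) and Ctsz (0.39), where 2.63% of all genes were called. 5-azadeoxycytidine had 2 genes up, Gla (0.66) and Ctsl (0.41), and 2 down, Sgsh (-0.49) and Atp6v0d1 (-0.23), in αTC1 (6.78% of all genes called), and 1 down, Grn (-0.24), in βTC3 (8.38%).

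The time of the response differed between compounds. At 6 h the hydroxamic acids raised 25 genes and lowered none in αTC1 (median 0.23; 50.9% of all genes called, 26.6% up and 24.3% down) and raised 16 and lowered 4 in βTC3 (median 0.09; 26.2% and 24.0%). Of single compounds, trichostatin A raised 22 genes in αTC1 at 6 h (37.5% of all genes called). Batch medians at 6 h were 0.16 to 0.31 in αTC1 and 0.03 to 0.12 in βTC3, with 6 batches each. Lipa was at 6.72, 7.32 and 7.97 in 24 αTC1 arrays, all above the 5.14, 5.66 and 6.10 of DMSO (1.65 ± 0.069, adjusted p = 1.17e-33), and at 7.45, 8.24 and 8.65 in 24 βTC3 arrays, all above the 5.78, 6.23 and 6.47 of DMSO (2.03 ± 0.091, adjusted p = 2.85e-31). Manba was the second to rise in both lines: 4.34, 4.96 and 5.63 against 3.63, 3.85 and 4.26 in αTC1 (1.06 ± 0.059, adjusted p = 8.44e-27), and 5.22, 5.93 and 6.43 against 4.11, 4.46 and 4.87 in βTC3 (1.52 ± 0.083, adjusted p = 1.82e-26). No array of the hydroxamic acids overlapped with DMSO for these 2 genes at 6 h. The falls at 6 h in βTC3 were small, with Scarb2 at -0.24 ± 0.07 (adjusted p = 0.00265) and Gusb at -0.22 ± 0.049 (adjusted p = 0.000104).

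The anilides had fewer calls at 6 h, 11 up and 2 down in αTC1 (12.7% and 13.9% of all genes) and 9 up and 2 down in βTC3 (12.9% and 16.5%). The tetrapeptides had 19 up and none down in αTC1 (39.1% of all genes called, 21.0% up and 18.1% down) and 7 and 1 in βTC3 (20.6% and 18.4%). Npc1, the membrane protein that exports cholesterol from lysosomes, went in opposite directions under the classes at 6 h. In βTC3 its levels were 6.32, 6.80 and 7.23 under hydroxamic acids and 4.63, 5.46 and 6.00 under anilides, against 6.07, 6.33 and 6.58 in DMSO. All 9 anilide arrays were below DMSO and 16 of 24 hydroxamic acid arrays above it, with changes of 0.51 ± 0.086 (adjusted p = 3.65e-07) under hydroxamic acids and -0.96 ± 0.11 (adjusted p = 1.24e-10) under anilides. In αTC1 Npc1 rose by 0.84 ± 0.074 under hydroxamic acids (adjusted p = 1.2e-16) and the anilides gave -0.25 (adjusted p = 0.0547). At 24 h Npc1 rose under both classes in both lines, by 0.44 and 0.53 in αTC1 and 0.26 and 0.36 in βTC3.

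The change between the times was tested as the effect at 24 h minus the effect at 6 h. For hydroxamic acids it was positive for 17 genes and negative for 4 in αTC1 (13.3% and 16.5% of all genes), and positive for 9 and negative for 6 in βTC3 (16.1% and 17.5%). In αTC1 Man2b1 gained 0.78 ± 0.081 (adjusted p = 3.91e-15), Lamp2 0.70 ± 0.069 (adjusted p = 1.59e-16) and Ctsl 0.68 ± 0.09 (adjusted p = 1.67e-10), while Gusb (-0.53), Npc1 (-0.44), Naglu (-0.40) and Sgsh (-0.27) had lower effects at 24 h. In βTC3 Mcoln1 gained 0.64, and Manba (-0.92 ± 0.12, adjusted p = 6.11e-11), Gusb (-0.84 ± 0.1, adjusted p = 1.22e-11) and Lipa (-0.60 ± 0.11, adjusted p = 4e-06) had lower effects at 24 h.

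Scriptaid had most of its calls at 6 h. It raised 17 genes in αTC1 at 6 h (31.3% of all genes called) and at 24 h had none up and 1 down, Atp6v0d1 (0.423%). Without the 2 arrays that stood apart Gusb (-0.74, adjusted p = 0.0273) and Man2b1 (0.52, adjusted p = 0.0326) were called as well. In βTC3 it raised 6 at 6 h (30.4%) and had no call at 24 h (0.0508%). The difference between the times was negative for 12 genes and positive for none in αTC1 (18.7% of all genes), and for 5 and none in βTC3 (20.6%). Lipa under scriptaid was at 7.61, 6.85 and 7.13 at 6 h and 5.84 and 5.18 at 24 h in αTC1, and at 8.29, 7.56 and 7.80 at 6 h and 6.47, 5.84 and 6.49 at 24 h in βTC3. The 24 h arrays lay within the DMSO ranges given above and the 6 h arrays above them, a difference of -1.67 ± 0.25 in αTC1 (adjusted p = 3.4e-08) and -1.78 ± 0.2 in βTC3 (adjusted p = 7.88e-13). Gla (-1.60) and Manba (-1.03) followed in αTC1 and Manba (-1.59), Asah1 (-0.72) and Gla (-0.64) in βTC3. BRD-K92415738 had 17 genes up in αTC1 at 6 h (34.2% of all genes called) and 1 at 24 h (0.534%). In αTC1 both scriptaid and BRD-K92415738 had 3 arrays at 6 h but 2 at 24 h, which makes calls harder to reach at 24 h. The opposite order was seen for BRD5298, with 1 gene at 6 h (2.26%), and for BRD6929 and BRD9773, with none at 6 h (0.102% and 2.63%), against their 18 to 23 genes at 24 h. Of the compounds in this paragraph, only scriptaid was tested for the difference between times.

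**Figure D5:**
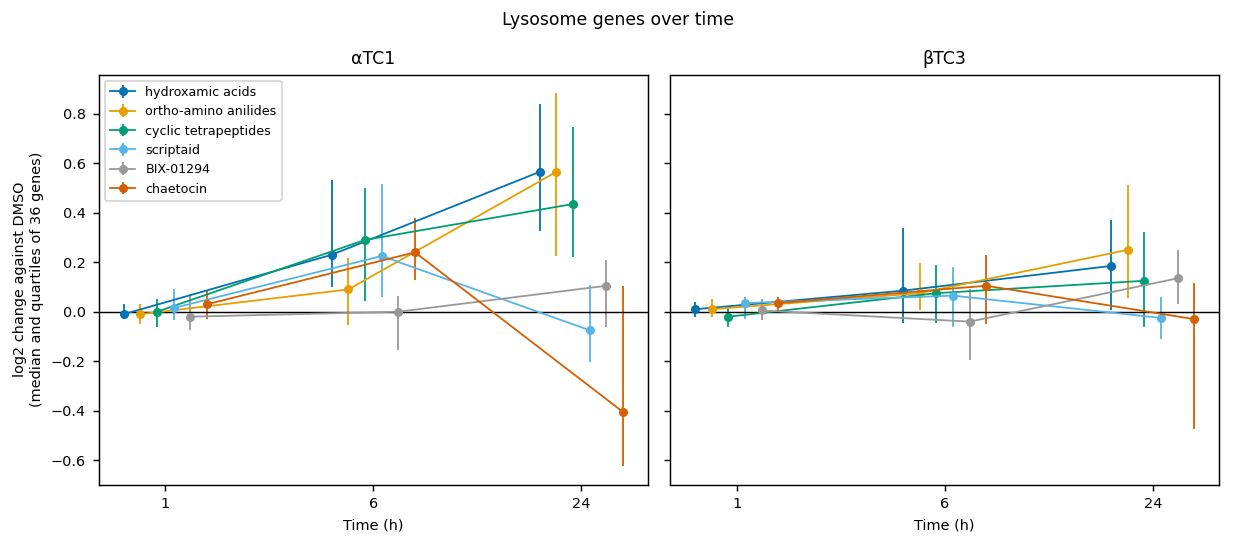
Median (points) and quartiles (bars) of the log2 change against DMSO over the 36 lysosome genes at 1, 6 and 24 h in αTC1 (left) and βTC3 (right), for 3 classes of histone deacetylase inhibitor, scriptaid alone, BIX-01294 and chaetocin. All medians were near 0 at 1 h; in αTC1 hydroxamic acids were at 0.23 at 6 h and 0.57 at 24 h, and chaetocin at 0.24 at 6 h and -0.40 at 24 h.

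Chaetocin gave rises at 6 h and mostly falls at 24 h. In αTC1 15 genes rose and 2 fell at 6 h (32.7% of all genes called, 15.8% up and 16.9% down), and at 24 h 6 rose and 20 fell (47.9%, 23.4% up and 24.5% down), with a median of -0.40. In βTC3 9 rose and none fell at 6 h (11.7% and 11.9%), and 5 rose and 12 fell at 24 h (15.4% and 15.5%), with a median of -0.03. Batch medians at 24 h were -0.40 to -0.13 in αTC1 and -0.08 to -0.03 in βTC3, with 3 batches each. The falls in αTC1 took in 4 of 10 proteases, 4 of 8 glycosidases, the 3 sulfatases, 3 of 7 lipid genes, 4 of 5 membrane proteins and 2 of 3 pump genes. Beside these, 3 of 7 leukocyte markers rose under chaetocin in αTC1 (median 0.17), all below the median gene level, and 4 of 6 alpha cell markers fell (median -0.45); their part in the result was not tested.

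Ctsf had levels of 5.12, 4.80, 5.37 and 5.94 in the 4 αTC1 chaetocin arrays at 24 h, against 6.56, 6.96 and 7.34 (lowest, median, highest) in DMSO, with no overlap and a change of -1.58 ± 0.13 (adjusted p = 5.51e-17). Naglu had 5.75, 5.48, 5.57 and 5.96 against 6.73, 7.17 and 7.43, also apart (-1.39 ± 0.11, adjusted p = 1.04e-17). Gusb had 4.78, 4.58, 5.44 and 5.77, below 13 of 14 DMSO arrays (-1.43 ± 0.23, adjusted p = 1.44e-07). Manba, in contrast, was at 4.77, 4.73, 5.01 and 4.57 against 3.37, 3.92 and 4.41 in DMSO and rose by 1.00 ± 0.15 (adjusted p = 2.1e-08). Npc2, the soluble cholesterol carrier, rose by 0.58 ± 0.099 (adjusted p = 8.9e-07), and Ctsb by 0.55 ± 0.09 (adjusted p = 3.98e-07). The mean of all probe sets of Ctsb gave 0.15 and was not called (adjusted p = 0.213).

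In βTC3 Lamp2 led the falls under chaetocin, with 8.81, 9.72 and 9.70 against 10.13, 10.45 and 10.80 in DMSO (-1.09 ± 0.093, adjusted p = 4.8e-16), ahead of Gusb (-0.96 ± 0.17, adjusted p = 2.44e-06) and Galns (-0.77 ± 0.13, adjusted p = 2.63e-06). The 3 arrays of Lamp2 lay below all of DMSO. Gla had 8.66, 8.76 and 8.56 against 7.47, 7.69 and 8.43 and rose by 0.92 ± 0.13 (adjusted p = 8.28e-09), but its other probe set gave -0.15. Atp6v1h rose by 0.79 ± 0.16 (adjusted p = 7e-05) and Lipa by 0.63 ± 0.13 (adjusted p = 3.57e-05). The effect of chaetocin differed between the lines for 11 of 36 genes (28.8% of all genes), 3 more positive in αTC1, Manba (0.70), Npc2 (0.49) and Ctsb (0.43), and 8 more negative, led by Naglu (-1.17 ± 0.15, adjusted p = 3.72e-10), Gla (-1.06 ± 0.22, adjusted p = 4.71e-05), Ctsf (-1.01 ± 0.2, adjusted p = 2.54e-05) and Ctsa (-0.97 ± 0.12, adjusted p = 1.56e-10). Without the 2 αTC1 arrays that stood apart Gusb made 12.

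BIX-01294 moved few lysosome genes, all upward at 24 h: 4 in αTC1 (1.6% of all genes called, 0.72% up and 0.881% down) and 6 in βTC3 (0.864% and 0.339%). In αTC1 Npc2 was at 10.91, 10.54 and 10.55 against 9.66, 10.09 and 10.55 in DMSO (0.57 ± 0.11, adjusted p = 0.000328), and Asah1 at 8.61, 8.06 and 8.24 against 7.25, 7.86 and 8.23 (0.52 ± 0.12, adjusted p = 0.00583). Tpp1, the peptidase lost in a neuronal ceroid lipofuscinosis, was at 9.76, 9.85 and 9.77 against 8.93, 9.41 and 9.68 (0.41 ± 0.097, adjusted p = 0.0101). Only Tpp1 had all 3 arrays above DMSO, and Lamp1 rose by 0.30 (adjusted p = 0.0418). In βTC3 the 6 were Tpp1 (10.12, 10.03 and 9.77 against 8.93, 9.62 and 9.98; 0.40 ± 0.077, adjusted p = 0.000782), Asah1 (9.63, 9.57 and 9.25 against 8.29, 8.97 and 9.39; 0.48 ± 0.1, adjusted p = 0.0054), Npc1 (6.51, 6.17 and 6.54 against 5.37, 6.13 and 6.64; 0.45 ± 0.12, adjusted p = 0.0329), Mcoln1, the sulfatase gene Arsa and the hexosaminidase gene Hexa. These arrays overlapped with DMSO in part. Without the batch term 1 gene stayed called in αTC1 and none in βTC3, and leaving out any 1 replicate left 1 gene in αTC1 and 0 to 2 in βTC3. At 6 h 1 rose and 2 fell in αTC1 (4.38% of all genes called) and 3 rose and 4 fell in βTC3 (11%). The effect differed between the lines for none of the 36 genes at 24 h (limma; 3 at an unadjusted p under 0.05; 0.22% of all genes called).

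Read across all 29 compounds at 24 h, single genes were called very unevenly. In αTC1 Ctsl and Npc2 rose under 21 compounds each and fell under none, Lipa and Ctsb rose under 20, and Ctsd, Grn and Lgmn under 19. The change of Ctsl ran from -0.27 under zebuarine to 2.20 under ITF-2357, that of Lipa from -0.11 under RG-0108 to 2.85 under ITF-2357. Naglu rose under 1 compound and fell under 12, Gusb fell under 7 and rose under none, and Scarb2 was called only under chaetocin (-1.16 ± 0.11, adjusted p = 4.65e-14). In βTC3 Lipa rose under 19 compounds and Ctsl and Ctsf under 18. Gusb fell under 17 compounds there, Smpd1 under 14, Galns under 11, and Gaa and Scarb2 under 8 each, and none of these 5 rose under any. Ctsc was called under no compound in either line, at a level where 10.7 percent of all genes lay lower.

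Genes around this list were also counted, from lists of further lysosomal genes (22 of 30 measured), proton pump genes (11 of 14), genes for enzyme sorting (8 of 13), regulators of the TFEB family and of mTORC1 (13 of 20), and autophagy genes (19 of 23). Under hydroxamic acids at 24 h in αTC1, 14 further lysosomal genes rose and 6 fell, led by Gm2a, the activator protein for ganglioside breakdown (1.75 ± 0.11), and the fucosidase gene Fuca1 (1.70 ± 0.076). Epdr1 fell by 1.24 (SE 0.1, adjusted p = 5.15e-17). Of the pump genes 7 rose and 1 fell, of the sorting genes 6 and 1, and of the autophagy genes 13 and 1, with Atg12, a ubiquitin-like protein that acts in autophagosome formation, at 0.99 ± 0.07 (adjusted p = 1.51e-20). Of all genes 26.1% rose and 24.3% fell in this comparison. In βTC3 the counts were 9 and 4, 3 and 1, 5 and none, and 12 and 3, where 22.5% of all genes rose and 20.7% fell. The iduronate sulfatase gene Ids rose in αTC1 (1.17 ± 0.088, adjusted p = 3.95e-19) and fell in βTC3 (-0.80 ± 0.079, adjusted p = 4.77e-14), a difference that was not tested itself.

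Under hydroxamic acids at 24 h the αTC1 line had 2 of the 13 regulators up and 2 down (26.1% of all genes rose and 24.3% fell). The βTC3 line had 2 up and 4 down (22.5% and 20.7%). Mitf rose in both, by 1.99 ± 0.12 in αTC1 (adjusted p = 5.39e-24) and 1.47 ± 0.098 in βTC3 (adjusted p = 7.15e-22), while Tfeb was not called in αTC1 (0.06 ± 0.078) or βTC3 (-0.04 ± 0.063). Mitf averaged 4.82 and Tfeb 4.02 over all arrays, both below the median gene level of 5.01, where a change is hard to measure. Tfe3 was not analysed here. Under anilides Mitf rose by 1.52 in αTC1 and 1.39 in βTC3, while 7 of the 13 regulators fell in each line and 1 rose in αTC1 and 2 in βTC3 (21.2% of all genes rose and 22.5% fell in αTC1, and 22.0% and 21.7% in βTC3). The tumour suppressor gene Flcn, an mTORC1 regulator, fell under anilides by 0.24 in αTC1 and 0.64 in βTC3. Under chaetocin in αTC1 the counts were 4 up and 6 down for further lysosomal genes, 1 and 5 for pump genes, 1 and 4 for sorting genes, 2 and 5 for regulators and 5 and 4 for autophagy genes, where 23.4% of all genes rose and 24.5% fell. Gnptab, which makes the mannose phosphate tag, fell by 1.34 (SE 0.15, adjusted p = 1.25e-11), the sorting receptor gene Sort1 fell by 1.01 (SE 0.12, adjusted p = 1.68e-11), and the acetyltransferase gene Hgsnat rose by 1.31 (SE 0.084, adjusted p = 4.99e-22).

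The promoters shown at the start were set beside these values as a description, with no test. In αTC1 at 24 h the 13 genes with CACGTG had a median change of 0.62 under hydroxamic acids and the 17 without it 0.44, and in βTC3 0.31 and 0.03. Under chaetocin the medians were -0.49 with and -0.25 without in αTC1, and 0.01 and -0.08 in βTC3. Under hydroxamic acids in αTC1 Lipa, the highest of the 30, and Gusb, the lowest, both lacked CACGTG in this window, and the ranges of both sets overlapped (-0.43 to 1.63 with and -0.64 to 1.94 without).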

How the data were processed

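Total RNA of the cultures was labelled and hybridised to Affymetrix arrays per the labels' protocols, and the deposited table gives 1 intensity per probe set and array on a linear scale (3.962 to 13635), with RMA named in the submitters' processing notes. Any further scaling or batch correction is not given in the sources used here. The design had taken the values as log2; log2 was computed from the deposited intensities before all tests. Of 22716 probe sets, 18003 carried 1 gene symbol in the platform annotation, 287 several and 4426 none; the last 2 kinds were left out, and 14 of the 36 genes had more than 1 probe set. Array medians ran from 4.363 to 4.729 (SD 0.0421), and the number of arrays limits the precision.

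Line, compound, dose, time, batch (7) and plate (9) come from the sample titles. A separate limma 3.58.1 model (R 4.3.3) held all arrays of 1 line at 1 time, with batch as a fixed term; classes weight their compounds equally. Line and time differences used joint fits. The labels do not say whether arrays of a group come from separate cultures, so p-values may measure technical spread. The members and the lists were chosen with earlier results of these data known. Named by rule are the 3 largest called rises and falls in each line at 24 h under hydroxamic acids, anilides, chaetocin and BIX-01294. At 6 h they are the 2 largest under hydroxamic acids. Array values are printed for only some of these genes. Other members are named by count or for a comparison, picked after their values were seen. Replicate numbers did not pair arrays: the correlation of deviations between arrays of 1 number averaged 0.00 in αTC1 and 0.02 in βTC3.

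The fit was tested on simulated data with known changes. It recovered 84.8% to 100% of log2 changes of 1 and 2.94% to 76.5% of changes of 0.3. Both shares were lowest for scriptaid between 24 and 6 h in αTC1, where 30.3% of changes of 0.5 were recovered. For chaetocin against DMSO at 24 h, 23.5% of changes of 0.3 were recovered in αTC1 and 11.8% in βTC3. Alternatives tried were no batch term, centring, quantile normalization, leaving out dim genes, the mean of all probe sets, plate as a random block, only the arrays compared, a replicate block, and leaving out replicates or compounds; 1 more, without the 2 αTC1 arrays that stood apart, was chosen after seeing the data. Sequences come from RefSeq (GRCm38.p6).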

Additional observations from a re-analysis of the deposited data

Results flagged for a closer look

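Within the αTC1 chaetocin group at 24 h, the only one of 4 or more compound arrays looked at in this way, 1 array stood far from the other 3 for 2 genes: Lgmn had a lowest level of 6.28 and Gaa a highest level of 8.30. These are 2 of 42 such tests, and chance alone gives about 5 percent of them.

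The effect of hydroxamic acids at 24 h differed between αTC1 and βTC3 in a test of the difference itself for 29 lysosome genes, among them Ctsl (1.17), Galns (0.93), Gaa (0.63), Manba (0.63), Man2b1 (0.57), Lipa (0.53), Gusb (0.42), Scarb2 (0.21), Ctsf (-0.29) and Naglu (-0.43), as log2 change in αTC1 minus that in βTC3. That of chaetocin differed for 11, among them Manba (0.70), Npc2 (0.49), Ctsb (0.43), Ctsf (-1.01), Gla (-1.06) and Naglu (-1.17). The effect at 24 h differed from that at 6 h for 21 genes under hydroxamic acids in αTC1 and 15 in βTC3, and under scriptaid for 12 in αTC1 and 5 in βTC3.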

How the results depend on the processing

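Of 446 counts of called lysosome genes under alternatives, over 38 results, 405 were within 1.5 times of the value reported. Without the batch term the counts were 1 instead of 3 (αTC1, 6 h), 1 instead of 4 (αTC1, 24 h), 0 instead of 7 (βTC3, 6 h) and 0 instead of 6 (βTC3, 24 h) for BIX-01294, 5 instead of 9 for chaetocin in βTC3 at 6 h, 13 instead of 20 for the pairs at 10 µM in βTC3, and 2 instead of 5 for scriptaid between times in βTC3 (8 with plate as a random block). With only the arrays of the groups compared, BIX-01294 had 0 calls at 6 h and 2 at 24 h in αTC1 and 0 at 24 h in βTC3, and hydroxamic acids minus anilides had 10 instead of 20 in αTC1 and 15 instead of 23 in βTC3. For anilides in βTC3 at 6 h the count was 19 instead of 11 with centred arrays and 6 without CI-994, and for tetrapeptides in βTC3 at 24 h 1 instead of 16 without apicidin. At 1 h in βTC3 1 call, a fall, appeared after quantile normalization or without dim genes. Leaving out 1 replicate number at a time gave 0 to 6 calls over all compounds in βTC3 at 1 h (6 without replicate 3) and 141 to 170 instead of 219 at 6 h (141 without replicate 3), 6 to 10 for anilides in βTC3 at 6 h, for BIX-01294 0 to 1 (αTC1, 6 h), 1 to 1 (αTC1, 24 h), 0 to 7 (βTC3, 6 h) and 0 to 2 (βTC3, 24 h), 9 to 20 instead of 33 for the pairs in αTC1 and 9 to 12 instead of 20 in βTC3, 10 to 17 for chaetocin between lines (17 without replicate 4), and for scriptaid between times 5 to 11 in αTC1 (5 without replicate 2) and 3 to 6 in βTC3. The cause was not tested beyond fewer arrays in these fits. Of 44 named gene values under 414 alternatives, 393 kept their direction and their side of the threshold, 21 were no longer called, 19 of them for BIX-01294 and the others Scarb2 under anilides in βTC3 without the batch term (-0.14, adjusted p = 0.269) and Ctsb under chaetocin as given above, and none was reversed. With a replicate block, possible for compound arrays only, hydroxamic acids minus anilides gave 18 calls in αTC1 and 20 in βTC3, and the pairs 31 and 18; it moved no count by over 1.5 times. Without the 2 αTC1 arrays that stood apart, and beside the changes given above, Ctsh under tetrapeptides (0.23, adjusted p = 0.0593) and Lipa between 24 and 6 h under hydroxamic acids (0.30, adjusted p = 0.052) lost their calls. Naglu under tetrapeptides (-0.25, adjusted p = 0.0455), Arsa between hydroxamic acids and anilides (-0.23, adjusted p = 0.0435), Ctsf between 24 and 6 h under hydroxamic acids (0.28, adjusted p = 0.0441) and Tpp1 between the lines in DMSO (-0.20, adjusted p = 0.0479) gained one, and the pairs in αTC1 had 32 calls. Ctsc and Ctsh lay among the dim genes of the arrays, where a fall is hard to measure.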
